A study of Homo sapiens with 2 samples.

Results

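The Wnt and beta-catenin pathway core was followed through 10 genes taken by name: APC, CTNNB1, AXIN1, AXIN2, TCF7L2, LEF1, LGR5, RNF43, ZNRF3 and MYC. All 10 were found among the 17687 named genes of the array, each with 1 probe set, and all 10 were among the 8747 genes compared. The samples were 2 cultures of DLD-1, an established human colorectal cancer cell line. One culture received a negative control siRNA (siControl) and the other a single siRNA duplex against YY1 (siYY1), a zinc finger transcription factor that can activate or repress. Both were transfected at 5 nmol/L with the same lipid reagent, and total RNA was taken after 3 days and hybridised to a whole-transcript array. The comparison asked which genes differed in level after YY1 knockdown.

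Wnt signalling controls the stability of beta-catenin. Without a signal, a destruction complex built on the scaffolds APC and AXIN marks beta-catenin for degradation. When a Wnt ligand binds its receptors, or when APC is lost, beta-catenin accumulates, enters the nucleus and acts through TCF and LEF factors on targets such as AXIN2, LGR5, RNF43, ZNRF3 and MYC. Most colorectal cancers carry a truncated APC, and DLD-1 is one such line, so both cultures shared a pathway that is active without ligand.

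Each group was 1 array, so the spread between cultures is unknown, no test was possible, and the values compare these arrays rather than the conditions. Levels are log2 values after quantile normalization, a difference is siYY1 minus siControl on that scale, and a difference of 1 is 2-fold. YY1 had no probe set among the named ones, so the knockdown itself was not analysed here and the groups rest on their labels. The epithelial identity of both cultures was visible in EPCAM at 16.3 in siControl and 16.5 in siYY1, and in KRT8 at 16.5 and 16.7. Of 20 named colorectal epithelial markers 14 were bright enough to be compared, while CDX1, LGALS4 and CEACAM5 were dim. The 14 compared had a median difference of -0.17, with 9 below 0 and TJP1, a tight junction scaffold, farthest at -1.34. Only 1 of 10 fibroblast, 2 of 11 leukocyte and 2 of 9 endothelial markers reached the brightness minimum of 7.50.

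RefSeq promoter windows, running from 250 bases before to 50 bases after a transcription start, were analysed for 6 of the 10 genes. None was at hand for AXIN2, LGR5 and ZNRF3, and MYC was left out of the search. The windows were searched on both strands for AANATGGC, a form of the YY1 recognition sequence, which occurs in 6.58% of all 35116 windows. Of the 6 genes, CTNNB1 and APC held a match. The bases before the CTNNB1 start and a short run inside the first APC transcript are shown because they carry these matches, in capitals. Both were added after their values were seen. TCF7L2, the member with the largest difference, and RNF43, one of those with the smallest, are shown for contrast and hold no match. The TCF7L2 run belongs to the first of 3 listed starts and the RNF43 run to the first of 2. All are from GRCh38.p14, written 5′ to 3′ on the gene's strand: chr3:41199255-41199504 (plus strand) for CTNNB1, chr5:112707513-112707540 (plus) for APC, chr10:112949997-112950246 (plus) for TCF7L2 and chr17:58417535-58417784 (minus) for RNF43.
CTNNB1: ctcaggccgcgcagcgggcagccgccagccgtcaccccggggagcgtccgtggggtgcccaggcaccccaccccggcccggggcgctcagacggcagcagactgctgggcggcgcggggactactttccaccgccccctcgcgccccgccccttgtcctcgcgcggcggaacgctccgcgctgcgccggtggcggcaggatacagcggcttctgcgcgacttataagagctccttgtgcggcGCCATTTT
APC: cacctcccacAAGATGGCggagggcaag
TCF7L2: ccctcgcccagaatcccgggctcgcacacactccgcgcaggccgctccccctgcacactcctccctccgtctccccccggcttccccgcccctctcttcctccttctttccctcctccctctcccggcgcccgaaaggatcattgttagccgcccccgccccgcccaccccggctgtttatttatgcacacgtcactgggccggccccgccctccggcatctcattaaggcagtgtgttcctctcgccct
RNF43: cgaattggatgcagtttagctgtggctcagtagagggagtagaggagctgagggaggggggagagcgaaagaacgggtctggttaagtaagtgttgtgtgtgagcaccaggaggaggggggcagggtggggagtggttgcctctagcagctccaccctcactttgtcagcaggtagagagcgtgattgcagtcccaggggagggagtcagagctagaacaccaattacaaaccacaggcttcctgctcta

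The CTNNB1 match lies on the reverse strand in the last 8 bases before the start, its first base at position -8. The APC match begins 26 bases into the transcript of its first listed start. As background, this upstream APC promoter is known for a YY1 motif whose inherited alteration underlies a gastric polyposis syndrome. A looser form without the first letter, ANATGGC, occurs in 14.0% of all windows and added a match in LEF1 at position -90. TCF and LEF factors bind CTTTGAT. The search for it also took CTTTGAA, with the variant words CTTTGTA and, as the last, CTTTGTT, and 13.8% of windows held a match. Among the 10 windows of the 6 genes, the only such match was in the second TCF7L2 window. The E-box CACGTG, bound by MYC with MAX and present in 7.26% of all windows, was found among these 10 only in the second APC window. A match is a run of letters in these windows and not a measured binding site.

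The receptor level of the pathway held a difference between related genes. LGR5, the R-spondin receptor that marks intestinal stem cells, read 12.7 in siControl and 12.8 in siYY1, differing by 0.13. RNF43, a membrane ubiquitin ligase that removes Frizzled receptors, read 13.1 and 13.3, differing by 0.14. Both differences were close to 0 and changed sign with the scaling, to -0.01 and -0.04 in the values as deposited. Set against the median of all genes compared, LGR5 lay between 0.11 and 0.16 and RNF43 between 0.09 and 0.15 under all scalings. ZNRF3, the paralog of RNF43 with the same activity, was at 10.2 in siControl and 11.3 in siYY1, 2.25-fold higher. Of the 8747 genes compared, 447 had a larger rise in siYY1 than the 1.17 of ZNRF3. In RNA from a whole culture, a difference in the number of expressing cells and one in RNA per cell cannot be told apart. The siYY1 array was high for ZNRF3, and for LGR5 and RNF43 the arrays lay close together.

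**Figure D1:**
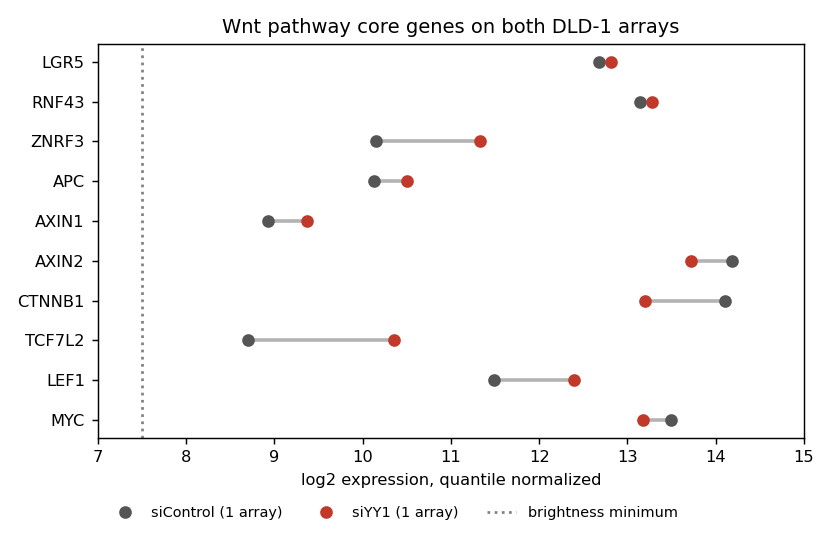
Log2 expression of the 10 genes (x axis, quantile normalized) on the siControl array (grey) and the siYY1 array (red), 1 array each, with the brightness minimum of 7.50 dotted. TCF7L2, ZNRF3, LEF1 and CTNNB1 have the widest gaps, and CTNNB1, AXIN2 and MYC are lower in siYY1. Levels of different genes come from different probes and are not to be compared.

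In the destruction complex the scaffolds lay on both sides of 0. APC read 10.1 in siControl and 10.5 in siYY1, differing by 0.37. AXIN1, the constitutive AXIN, read 8.93 and 9.38, differing by 0.45. AXIN2, which is induced by the pathway and feeds back on it, read 14.2 and 13.7, differing by -0.47. None of the 3 reached 2-fold, and their signs held under every scaling tried. Differences of this size were common: 59.2% of all genes compared had a larger absolute difference than APC and 50.6% a larger one than AXIN2.

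CTNNB1, which encodes beta-catenin itself, was the lowest of the 10 genes. It read 14.1 in siControl and 13.2 in siYY1, differing by -0.90 or 1.87-fold lower, just inside the 2-fold line. As deposited, the arrays read 14.2 and 13.1, and the difference of -1.08 was past that line. The shift came with the scaling of all genes, whose median difference was -0.13 as deposited, -0.20 with median centring and -0.01 after quantile normalization. Set against that median, CTNNB1 lay between -0.95 and -0.89 under all scalings. CTNNB1 was among the brightest decile of the genes compared, where 4% were at least 2-fold lower after quantile normalization, CTNNB1 not among them. Of all genes compared, 1039 had a larger fall than CTNNB1 and 21.4% a larger absolute difference.

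Of the DNA-binding partners of beta-catenin, TCF7L2 was past 2-fold on the higher side and LEF1 just short of it. TCF7L2, the main TCF factor of the intestinal epithelium, was at 8.70 in siControl and 10.4 in siYY1. This was 3.16-fold higher, a difference of 1.66, and only 137 of the genes compared had a larger rise. LEF1, a related factor that is itself a Wnt target, read 11.5 and 12.4, differing by 0.90, which is 1.87-fold and below the 2-fold line under every scaling. Of the other members of this family, TCF7L1 was dim at 4.90 and 4.99, and TCF7 was not analysed here. TCF7L2 is read by 1 probe set annotated to 13 transcripts and LEF1 by 1 annotated to 4, so isoforms with and without the beta-catenin binding region could not be told apart.

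MYC, the growth regulator and best known transcriptional output of the pathway, was at 13.5 in siControl and 13.2 in siYY1. The difference was -0.31, reaching -0.49 as deposited and -0.56 with median centring, and after quantile normalization 65.8% of all genes compared had a larger absolute difference.

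Taking the 10 genes as a group, 7 were above 0 and 3 below, with a median of 0.26 against -0.01 over all genes compared. ZNRF3 and TCF7L2 were at least 2-fold higher and none was lower by that much. Over all genes compared, 7.92% were higher by that much, 9.37% lower and 17.3% either way. With 10 genes these counts turn on single values. As deposited, 2 were at least 2-fold higher and 1 lower, and 5 genes were above 0. Of all 8747 genes compared, 536 were higher and 1067 lower by that much as deposited. With median centring ZNRF3 was just short at 0.96, leaving 1 higher and 1 lower, beside 440 and 1250 of all genes. At 3-fold, TCF7L2 alone remained, beside 165 genes higher and 213 lower of all compared.

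**Figure D2:**
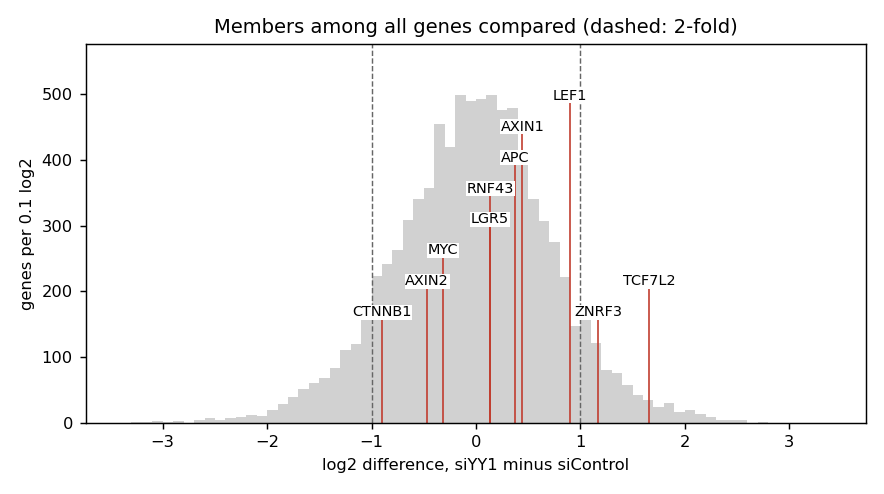
Histogram of the log2 difference, siYY1 minus siControl (x axis), over the 8747 genes compared, as genes per 0.1 log2 (y axis), with the 10 genes marked by red lines and 2-fold by dashed lines. TCF7L2 at 1.66 and ZNRF3 at 1.17 are past 2-fold, and CTNNB1 at -0.90 is just inside it on the other side; line heights only separate the names.

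**Figure D3:**
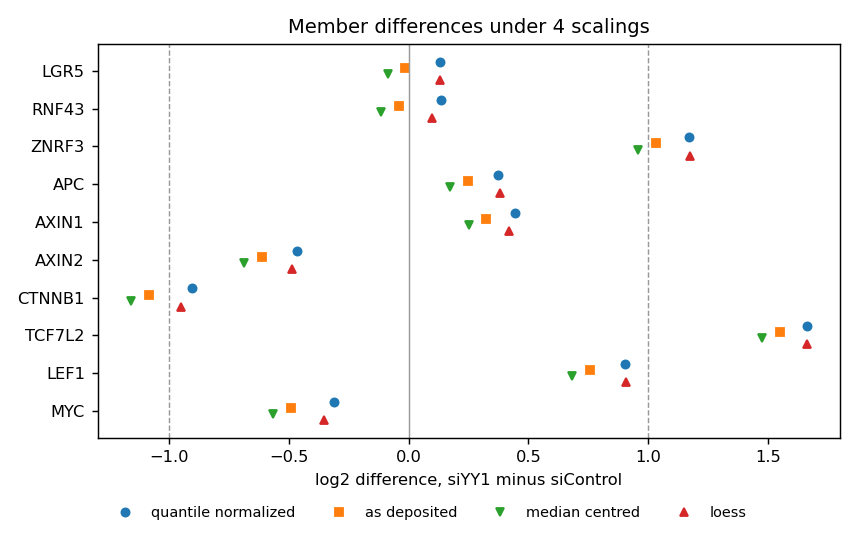
Log2 difference of each gene (x axis) after quantile normalization, as deposited, after median centring and after loess, with 2-fold dashed. Most genes keep their side of each line, while CTNNB1 and ZNRF3 cross the 2-fold line and LGR5 and RNF43 cross 0.

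The genomic span of a gene is given beside these differences. TCF7L2 spans 217 kb and ZNRF3 174 kb in the RefSeq annotation, and both are in the widest decile of the genes compared. In that decile the median difference was 0.22 and 17.0% were at least 2-fold higher. LEF1 and APC were in the next decile, where the median was 0.13 and 12.3% were at least 2-fold higher. The 3 lower genes were shorter: CTNNB1 spans 40.9 kb, AXIN2 33.1 kb and MYC 7.52 kb, in deciles with medians of -0.05. LGR5, at 147 kb, was also in the widest decile and differed by 0.13. AXIN1 at 65.3 kb and RNF43, nearly as long, were in a decile with a median of -0.02 and differed by 0.45 and 0.14. The part of genomic span in the differences was not tested, and protein length was not analysed here.

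**Figure D4:**
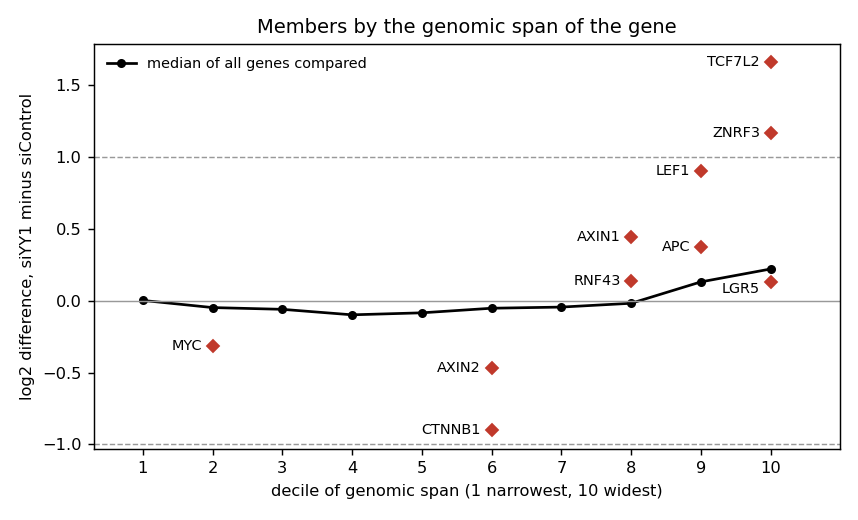
Log2 difference (y axis) of the 10 genes (diamonds) by the decile of genomic span they fall in (x axis), with the median of all genes compared in each decile (black). TCF7L2 and ZNRF3 lie above the line in the widest decile, LGR5 lies just below it there, and CTNNB1 lies below it in the sixth.

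The wider pathway was read through role lists of 233 further genes, of which 132 were bright enough to be compared. Past 2-fold in siYY1 lay 26 on the higher and 9 on the lower side, shares of 19.7% and 6.82% beside the 7.92% and 9.37% of all genes. The median was 0.28. Genes in the 2 widest deciles of span made up 34.1% of the list, and without them 12 of 87 were at least 2-fold higher, or 13.8% beside 6.23% of all such genes. The lists were written with some values known: without PTPN14, CEMIP, MED12, ID2, JUP and CDCA7, 22 were higher and 7 lower.

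Ligands were mostly dim on these arrays. Of 23 named Wnt, R-spondin and Norrin genes 21 were dim, and the others, RSPO4 and NDP, differed by 0.20 and 0.18. Among secreted and membrane antagonists outside the 10 genes, 21 of 22 were dim and KREMEN1, a DKK receptor, differed by 0.26. Of 7 genes of Wnt secretion 6 were below 0. VPS35, the retromer subunit that recycles the Wnt carrier WLS, was 2.20-fold lower at -1.14, while WLS itself differed by -0.05 and VPS29 was the highest at 0.04.

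Among receptors other than LGR5, 3 of 14 were at least 2-fold higher and 1 lower, with a median of 0.59. Of the 14, FZD2 and FZD5, at 7.15 and 6.99 in siControl, reached the brightness minimum only in siYY1. The median was 0.41 without a brightness filter and 0.59 at the 75th percentile of brightness. LRP6, the coreceptor that recruits AXIN, read 9.17 in siControl and 10.4 in siYY1, differing by 1.23, and its relative LRP5 differed by 0.72. PTK7, a planar polarity coreceptor, was at 1.40 and FZD3 at 1.08. TSPAN12, a coreceptor of Norrin signalling, was at -1.13. Of the 13 cytoplasmic transducers only CSNK2A2, a catalytic subunit of casein kinase 2, passed 2-fold, at 12.3 in siControl and 14.2 in siYY1, while its paralog CSNK2A1 differed by -0.03. TAX1BP3, an inhibitor of the pathway, was the lowest transducer at -0.46.

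Around APC and the AXINs, the destruction complex list also holds genes that are not parts of the complex. Its 24 other compared genes lay on both sides of 0, with 17 above and 7 below. GSK3B, a kinase that phosphorylates beta-catenin for degradation, was at 12.2 in siControl and 14.0 in siYY1, 3.36-fold higher, and its paralog GSK3A was at 0.96. CSNK1A1, the priming kinase, differed by 0.19. The protein phosphatase 2A catalytic subunit PPP2CA was at -1.27 and its scaffold PPP2R1A at -1.13. The catalytic paralog PPP2CB was at 0.79, the regulatory subunit PPP2R5A at 0.99 and the scaffold paralog PPP2R1B at -0.42, so this enzyme's genes did not share a direction. TRRAP at 1.80, USP34, a deubiquitinase of AXIN, at 1.52 and the ubiquitin ligase HUWE1 at 1.41 were the other genes past 2-fold, each from the 2 widest deciles of span, as was GSK3B. TRRAP, USP34 and HUWE1 are not parts of the complex itself. In all, 4 of the 24 listed genes were higher and 2 lower.

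Beta-catenin also binds cadherin at the junction. The list of its partners there and of factors that bind or restrain it in the nucleus, such as CHD8, CTNNBIP1 and SOX9, had 2 of 9 genes at least 2-fold higher and 1 lower. JUP, which encodes plakoglobin, the closest relative of beta-catenin, was at 13.1 in siControl and 11.9 in siYY1. Its difference of -1.24 was on the same side as that of CTNNB1. CDH1, which encodes E-cadherin, differed by -0.04 and CTNNA1, for alpha-catenin, by -0.31. The scaffold IQGAP1 was at 1.21, and PTPN14, a phosphatase of junctions, at 2.59.

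Nuclear effectors other than TCF7L2 and LEF1 had the highest share of the role lists with more than 10 genes: 13 of 36 were at least 2-fold higher and 3 lower, 36.1% and 8.33%, with a median of 0.57. The adaptors that link beta-catenin to transcription were among them, with BCL9 at 1.16, BCL9L at 1.04 and PYGO2 at 1.08. As deposited, BCL9L, PYGO2, CDK8 and TLE1 were just under 2-fold, as were FZD3 and the target gene ID2. The largest rises on the list belonged to chromatin and Mediator genes that are not particular to this pathway. Of these, SMARCA4, the ATPase of the SWI/SNF remodeller, read 10.5 in siControl and 12.7 in siYY1, differing by 2.19. KMT2A was at 2.15, the acetyltransferase CREBBP at 2.01, KMT2D at 1.69, and the Mediator kinase subunits MED12 and CDK8 at 1.60 and 1.03. The kinases HIPK2 and HIPK1 were at 1.41 and 1.31. The Groucho corepressors that occupy TCF sites without beta-catenin were split, with TLE3 at 1.29 and TLE1 at 1.06 but TLE4 at -1.61. The corepressor CTBP2 was at -1.30 and the acetyltransferase KAT5 at -1.21. Outside the 2 widest deciles of span, 7 of 21 were at least 2-fold higher, or 33.3%, beside 6.23% of all such genes.

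**Figure D5:**
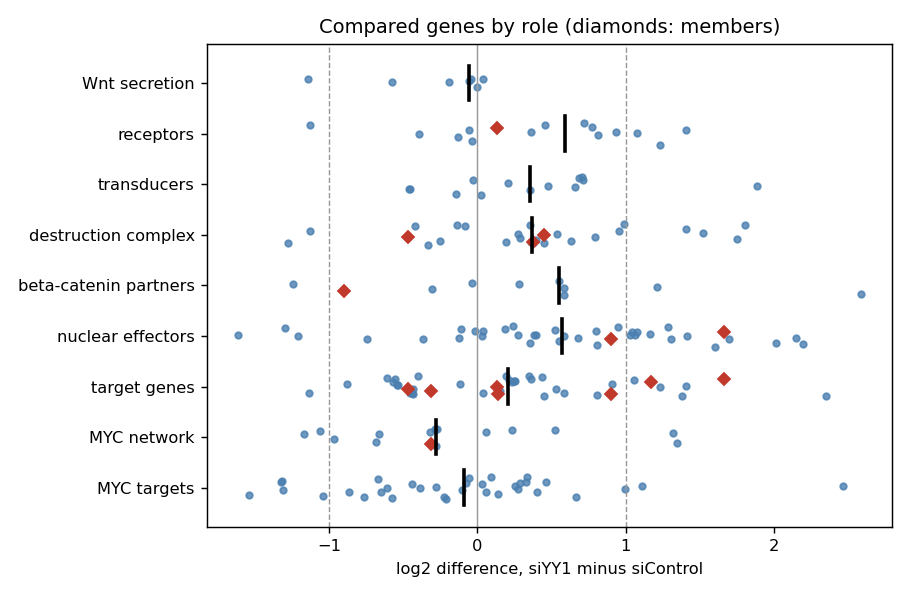
Log2 difference, siYY1 minus siControl (x axis), of every compared gene by its role (y axis), with 2-fold dashed, the 10 core genes as red diamonds, the others as blue points and the median of the others as a bar. Nuclear effectors hold 13 of 36 blue points past 2-fold on the right, and target genes centre near 0.20; a gene with several roles appears in each.

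Target genes of the pathway did not share a direction. Beside the members, 34 colorectal Wnt targets were compared, with a median of 0.20, 20 above 0 and 14 below, 5 at least 2-fold higher and 1 lower. The cell cycle regulator CCND1 read 15.2 in siControl and 14.6 in siYY1, differing by -0.54, and the stem cell factor ASCL2 was at -0.61. NKD1, a feedback inhibitor, was at -0.45, close to AXIN2. SOX9, a crypt transcription factor, was at 0.58, and the crypt positioning receptor EPHB3 at 0.91. EPHB3 reached the brightness minimum only in siYY1, and ASCL2 only in siControl. The genes past 2-fold were CEMIP at 2.35, PTK7, JAG1, a Notch ligand, at 1.38, LRP6, ID2 at 1.05, and on the lower side CDCA7 at -1.13. Outside the 2 widest deciles of span the median of the targets was 0.04, beside -0.05 over all such genes. In the values as deposited the median over all 34 was 0.10, beside -0.13 over all genes compared.

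Around MYC and downstream of it, levels were likewise mixed. Among 14 compared genes that partner with MYC or control it, 2 were at least 2-fold higher and 2 lower, with a median of -0.28. MAX, its obligate partner, read 11.2 in siControl and 10.6 in siYY1, differing by -0.66. MNT, a repressor that competes for MAX, was at 1.34, MLXIP at 1.32, MLX at -1.17 and SKP2, a ubiquitin ligase for MYC, at -1.06. MNT, at 7.08 in siControl, reached the brightness minimum only in siYY1. Of 34 MYC target genes, 2 were at least 2-fold higher and 5 lower, 5.88% and 14.7%, with a median of -0.09. The lower ones were NOP2 at -1.54, NOP16 at -1.33, LDHA at -1.32, PRMT5 at -1.31 and POLR1B at -1.04. NOP2, at 6.91 in siYY1, reached the brightness minimum only in siControl. CAD at 2.46 and the folate carrier SLC19A1 at 1.11 were on the other side. Several of these values, such as those of CAD, NOP2, NOP16 and LDHA, were known when the list was written.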

How the data were processed

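The authors deposited processed array values, 1 for each probe set, which were taken as log2 expression from their range of 2.51 to 17.9. The background correction and normalization that the authors applied to make these log2 values are not given in the labels used here. Per the labels' protocols, sense cDNA was labelled with biotin for a GeneChip. Deposited medians were 6.86 and 6.93, and the upper quartiles differed by -0.13, so the pair was quantile normalized. Probe sets were named through a platform table (17709 of 21448) and symbols updated to RefSeq of GRCh38.p14. Probe sets of 1 gene were averaged. Protein-coding genes whose brighter array reached the median brightness of all named genes, computed the same way, were compared and counted at 2-fold. A gene could therefore be compared through 1 array alone, the one where it was higher. No test was possible with 1 array per group.

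The members, role lists and rules were chosen with earlier results of these data known. Named genes were the members, list genes past 2-fold and each list's highest and lowest; others were named after their values were seen. The computation was tested on simulated data. Promoter sequences came from RefSeq. Python 3.11.15, numpy 2.4.6, pandas 2.3.3, statsmodels 0.14.6 and matplotlib 3.10.9 were used.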

Additional observations from a re-analysis of the deposited data

How the results depend on the processing

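No paired analysis was possible because each group was 1 array. The alternatives were deposited values, median centring, loess, the brightest probe set, other brightness filters and thresholds of 1.5-fold and 3-fold. Removal of wide genes and of genes with known values was added after the data were seen. Each member has 1 probe set and only 20 genes have several, so the brightest probe set repeated the main values and tested nothing further. CTNNB1 was past 2-fold at -1.08 as deposited and -1.16 with median centring, so 1 member was lower under each, as at 1.5-fold. ZNRF3 was at 0.96 with median centring, which left TCF7L2 as the 1 member higher, as did the 3-fold threshold. At the 75th percentile of brightness 7 members remained, TCF7L2 not among them, and ZNRF3 was the 1 member higher. Pathway genes past the threshold on the higher side numbered 45 at 1.5-fold, 10 at 3-fold and 12 without wide genes, and 1 was lower at 3-fold. Of all 8747 genes compared, 1699 were higher at 1.5-fold and 165 at 3-fold, where 213 were lower. The median of beta-catenin partners was -0.0041 without a brightness filter, which adds dim genes. The cause of the scaling shifts was not tested. The other 126 values stayed on their side of 2-fold, within 1.5 times for counts, or within 0.38 for medians. The 0.38 is the median gap between probe sets of 1 gene, over 20 genes. It exceeds several of the list medians, so a median could fall to 0 and still count as staying. With median centring the pathway median was 0.11 and that of the targets 0.02, beside -0.20 over all genes compared. Without a brightness filter they were 0.10 and 0.15, beside -0.005 over all genes. Signal near background can hide differences, and this was not tested for the dim ligands and antagonists. Among the dim antagonists, left out of the main counts, FRZB was at 1.08 and TRABD2A at -1.04.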

Other observations

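Genes with the YY1 recognition sequence AANATGGC near a start lay close to those without it. Of the genes compared, 1035 had it in a promoter window, of which 7.25% were past 2-fold on the higher and 10.4% on the lower side in siYY1. For 6351 genes with windows but no match, the shares were 7.64% and 9.57%. The medians were 0.01 and -0.02. For the TCF and LEF words, 889 genes with a match had a median of -0.05 and 6497 without had -0.02. These are counts on 1 array per group, with no test, and CTNNB1 and APC are 2 of the 1035.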
